A study of Bos taurus with 46 samples.

Results

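Circulating maternal leukocytes (white blood cells, WBC) were compared on day 105 of gestation (D105) between 8 heifers pregnant after artificial insemination (AI, the control pregnancies) and 6 heifers carrying in vitro produced fetuses of normal size (IVP-Normal). These 14 libraries, 1 per heifer, were selected by the day and the fetal group in the sample labels from 46 libraries of 23 heifers. All recipients were Angus crossbred heifers of breeding age with synchronized estrus. IVP embryos came from slaughterhouse *Bos taurus taurus* oocytes fertilised with semen of 1 *Bos taurus indicus* (Brahman) bull, and 2 embryos were transferred to each IVP recipient. In the study's records 4 of the IVP-Normal heifers carried 1 fetus and 2, heifers 628 and 688, carried 2 fetuses, and every AI heifer carried 1. A fetus was IVP-Normal when its weight lay below the threshold, set on control fetuses, that defines large offspring syndrome (LOS). The D55 libraries of the same 14 heifers and the D105 libraries of 9 heifers carrying fetuses with LOS (IVP-LOS) serve as references.

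The labels place every AI and every IVP-LOS library of D105 in a library set called BACKUP, whereas those of IVP-Normal are in a set called New. Library set and group therefore coincide in the D105 comparison of AI with IVP-Normal, and their parts in any difference cannot be told apart. All D55 libraries belong to the set New, so the same 14 heifers were also compared within 1 set on that day. Embryo source, number of fetuses and recipient procedure also differ between AI and IVP-Normal.

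Peripheral WBC are a mixture of neutrophils, lymphocytes, monocytes and rarer granulocytes. In cattle they include many γδ T cells, which carry WC1 receptors. In early pregnancy the conceptus secretes interferon tau, and blood leukocytes respond by expressing interferon-stimulated genes, a response that fades once the placenta is established. Later in gestation, progesterone and products of the placenta are thought to keep maternal T cells, natural killer (NK) cells and monocytes tolerant of the fetus. In RNA from whole WBC, fewer cells of a type and less RNA per cell cannot be told apart.

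On D105 the reads assigned to genes numbered 21775579 to 24162288 in each of the 14 libraries. The share of reads that fell on no gene was 27.9% ± 1.89 (SD, n = 8) in AI and 27.5% ± 1.80 (n = 6) in IVP-Normal (difference −0.461 percentage points, exact two-sided permutation test p = 0.650). Genes shared by all leukocytes were abundant in every library, with *LAPTM5* at 2024 to 2852 CPM, and the list of 8 had a median log2 fold change of −0.08, or −0.04 and −0.02 without heifers 519 and 633 (*LCP1* −0.16, *CD48* 0.10, *CD37* 0.26). Each heifer's 2 libraries were checked against each other with 38 genes that were either on or off, with a gap of more than 4-fold between libraries. Heifer 517 (AI) was unlike between its days for 9 of these genes, and 2 of the other 22 heifers for 1 gene each. All 9 genes were off in the D105 library of heifer 517 and on in both libraries of heifer 519 (IVP-Normal). In the D55 library labelled 517 they stood at 26.9% to 33.1% of the D55 level of heifer 519 (median 30.1%), and 519 was the only other heifer with all 9 above the level of 517. For example, *BOLA-DQB* was at 113.7 CPM in the D55 library labelled 517, at 0.0 CPM in its D105 library and at 381 CPM in the D55 library of heifer 519. D55 values include this library unless stated, and whether it holds RNA of both heifers was not tested.

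Expression levels are CPM (counts scaled to a common total of reads on genes), scaled with TMM, the trimmed mean of M-values, over the 46 libraries together. A log2 fold change is IVP-Normal minus AI, so a positive value is higher in IVP-Normal. Genes were tested with edgeR's quasi-likelihood F-test, and the false discovery rate (FDR) is the Benjamini-Hochberg adjusted p over all genes tested.

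The first question was which genes differed on D105 between heifers with a normal-sized IVP fetus and heifers with an AI fetus. On D105, 0 of 15437 genes (0.0%) were called at an FDR of at most 0.05, and the smallest FDR was 0.514. At an unadjusted p under 0.05 there were 820 genes higher in IVP-Normal (5.31%) and 657 lower (4.26%). edgeR's likelihood ratio test called 3 genes and DESeq2's called 3, all of them higher in IVP-Normal. *SPOCK1* and *LOC107132678* were called by both (2 of 15437 genes, 0.013%). On D55, 0 of 15350 genes (0.0%) were called in the same heifers, with 765 genes higher (4.98%) and 757 lower (4.93%) at an unadjusted p under 0.05. Without the D55 library of heifer 517 these shares were 7.49% and 5.21%, again with 0 genes called by the quasi-likelihood test. edgeR's likelihood ratio test called 3 genes on D55 and DESeq2's 15, and without that library edgeR's called 44 higher and 16 lower, and DESeq2's 67 higher and 40 lower. The D105 libraries lay 2.49 units of Euclidean distance farther apart between groups than within them (mean between 65.5, mean within 63.0, exact permutation test p = 0.102 over 3003 divisions). The plot of all genes against their level shows where the labelled genes lie.

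**Figure D1:**
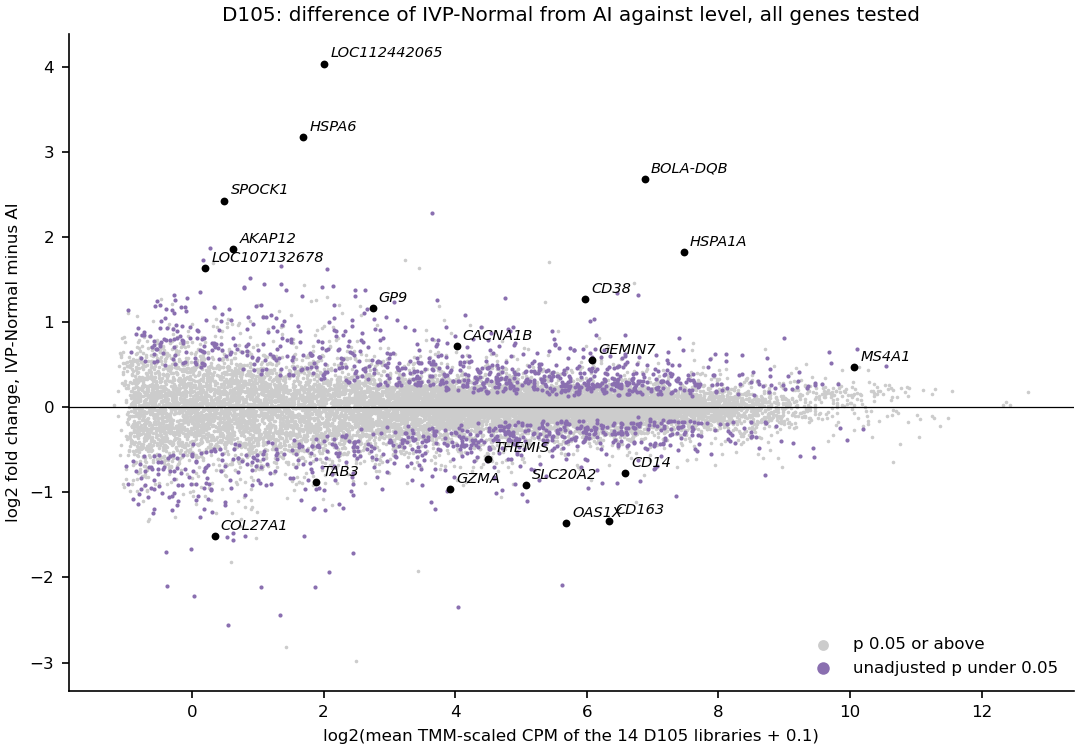
Log2 fold change on D105 (IVP-Normal minus AI, vertical axis) of each of the 15437 genes tested against log2 of the mean CPM plus 0.1 (horizontal axis). Purple points had an unadjusted p under 0.05 and black points are genes named in the text; 0 genes passed the FDR threshold.

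*SPOCK1*, which encodes the matrix proteoglycan testican-1, was at 0.132 to 0.749 CPM (median 0.446) in AI and at 0.462 to 5.48 CPM (median 1.89) in IVP-Normal on D105. The groups overlapped, and the highest IVP-Normal libraries stood far above every AI library. Its log2 fold change was 2.42 (standard error 0.52, quasi-likelihood FDR 0.514), and its FDR was 0.0255 in edgeR's likelihood ratio test and 0.0369 in DESeq2. On D55 the log2 fold change was 1.95. The D105 libraries of the IVP-LOS group, which share the set of the AI libraries, were at up to 1.45 CPM (median 0.807). The AI values rest on 3 to 17 reads per library and the lowest IVP-Normal value on 11, so counting error is large at the low end.

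In all, 6 genes did not overlap between the groups on D105, and 4 of them, or 0.0259% of the genes tested, were higher in IVP-Normal. A random division into 8 and 6 heifers would separate a gene in a given direction with a probability of 0.000333. Neither the share higher (0.0259%) nor the share lower (0.013%) exceeds that, so these counts are no more than random division would give. The long non-coding RNA *LOC107132678* was at 0.31 to 0.738 CPM in AI and 0.857 to 3.67 CPM in IVP-Normal (log2 fold change 1.64, standard error 0.32). On D55 its groups did not overlap either, with 0.253 to 0.893 CPM in AI and 0.958 to 2.67 CPM in IVP-Normal. *LOC112442073*, annotated as a pseudogene among immunoglobulin V segments, was at 2.36 to 3.96 CPM in AI and 4.24 to 8.36 CPM in IVP-Normal (log2 fold change 0.83). Reads of such segments can be shared with near-identical copies. *FAM166B* was at 0.614 to 1.08 CPM against 1.24 to 1.74 CPM. The long non-coding RNA *LOC104974744* was at 0.36 to 0.969 CPM against 0.9997 to 2.02 CPM. In the IVP-LOS libraries, all 4 genes ranged across the gap between AI and IVP-Normal.

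The other 2 non-overlapping genes (0.013% of the genes tested) were lower in IVP-Normal. *CCDC93*, part of a complex that sorts cargo on endosomes, was at 27.0 to 34.5 CPM in AI and 20.2 to 26.04 CPM in IVP-Normal (log2 fold change −0.31, standard error 0.08). *KIAA0586*, needed for building cilia, was at 27.6 to 33.3 CPM in AI and 20.0 to 27.2 CPM in IVP-Normal (log2 fold change −0.30, standard error 0.09). On D55 both genes overlapped widely, with log2 fold changes of −0.05 and −0.03.

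The 12 named genes of smallest p that were higher in IVP-Normal included *SPOCK1* and the following. *CD38*, a surface enzyme of lymphocytes that consumes NAD, was at 18.5 to 65.1 CPM (median 35.6) in AI and 40.4 to 124.9 CPM (median 94.2) in IVP-Normal. A single IVP-Normal library, that of heifer 628, lay within the AI range, and IVP-LOS libraries were at 30.6 to 118.9 CPM. Its log2 fold change was 1.27 (standard error 0.29) on D105 and 0.83 on D55. *GEMIN7*, a component of the SMN complex that assembles splicing particles, was on average at 56.4 ± 7.92 CPM (SD) over the 8 AI heifers and at 82.7 ± 16.0 CPM over the 6 IVP-Normal heifers. Its log2 fold change was 0.55 on D105 and −0.0005 on D55. *AKAP12*, a scaffold for protein kinase A, was at 0.36 to 1.22 CPM in AI and 0.462 to 4.79 CPM in IVP-Normal (log2 fold change 1.86 on D105, −0.26 on D55). *RGMB*, a co-receptor for bone morphogenetic proteins, had a log2 fold change of 0.58 on D105 and 0.08 on D55.

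The kinase *MAPK12* (p38γ) and *SPRED3*, an inhibitor of Ras signalling, had log2 fold changes of 1.08 and 1.01 on D105, and of 0.94 and 0.87 on D55. The nucleotide sugar transporter *SLC35D2* was on average at 55.8 ± 11.3 CPM (SD) over the 8 AI heifers and at 83.6 ± 16.7 CPM over the 6 IVP-Normal heifers. The lipid acyltransferase *AGPAT4* was at 9.45 CPM ± 2.84 against 16.5 CPM ± 4.63. The remaining genes of this group were *ANKRD10*, *CMTM4* and *TADA3*, the last an adaptor in histone acetyltransferase complexes, with log2 fold changes of 0.34, 0.48 and 0.30. All 12 had an FDR of 0.514, so none was called.

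The genes of smallest p that were lower in IVP-Normal included *CCDC93* and the following. *GZMA*, a protease of cytotoxic granules, was at 9.34 to 25.8 CPM (median 19.7) in AI and 5.40 to 14.02 CPM (median 9.33) in IVP-Normal. Its log2 fold change was −0.97 (standard error 0.23) on D105 and −0.53 on D55. *THEMIS*, which tunes signalling of the T cell receptor, was at 17.2 to 33.5 CPM against 14.9 to 21.2 CPM (log2 fold change −0.60 on D105, −0.58 on D55). *TAB3*, an adaptor of the kinase TAK1 in NF-κB signalling, was at 3.03 to 5.72 CPM against 1.67 to 3.63 CPM (log2 fold change −0.88 on D105, 0.04 on D55). *COL27A1*, a fibrillar collagen, was at 0.743 to 2.83 CPM in AI and 0.252 to 1.08 CPM in IVP-Normal (log2 fold change −1.51, standard error 0.38). On D55 the groups of *COL27A1* did not overlap, with a lowest AI value of 0.986 CPM and a highest IVP-Normal value of 0.815 CPM. Both likelihood ratio tests called it on D55, together with *LOC112442378* (log2 fold change −0.92) and *LOC112442065*, and both also called these 3 without the D55 library of heifer 517.

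The phosphate transporter *SLC20A2* was on average at 42.1 ± 16.0 CPM (SD) over the 8 AI heifers and at 22.2 ± 5.81 CPM over the 6 IVP-Normal heifers. This group also held *NUCB2*, the Rap1 exchange factor *RAPGEF2*, the ARF exchange factor *CYTH3*, the zinc importer *SLC39A6* and the centriolar *CEP162*, besides *CCDC93*. Their log2 fold changes were −0.57, −0.64, −0.44, −0.37, −0.40 and −0.31. Of the 24 genes of smallest p (12 in each direction), 20 had the same sign on D55 (83.3%), against 9790 of the 15075 genes tested on both days (64.9%). The heifers are the same on both days, so the days are not independent. With the D55 library of heifer 517 left out the count was again 20 of 24.

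**Figure D2:**
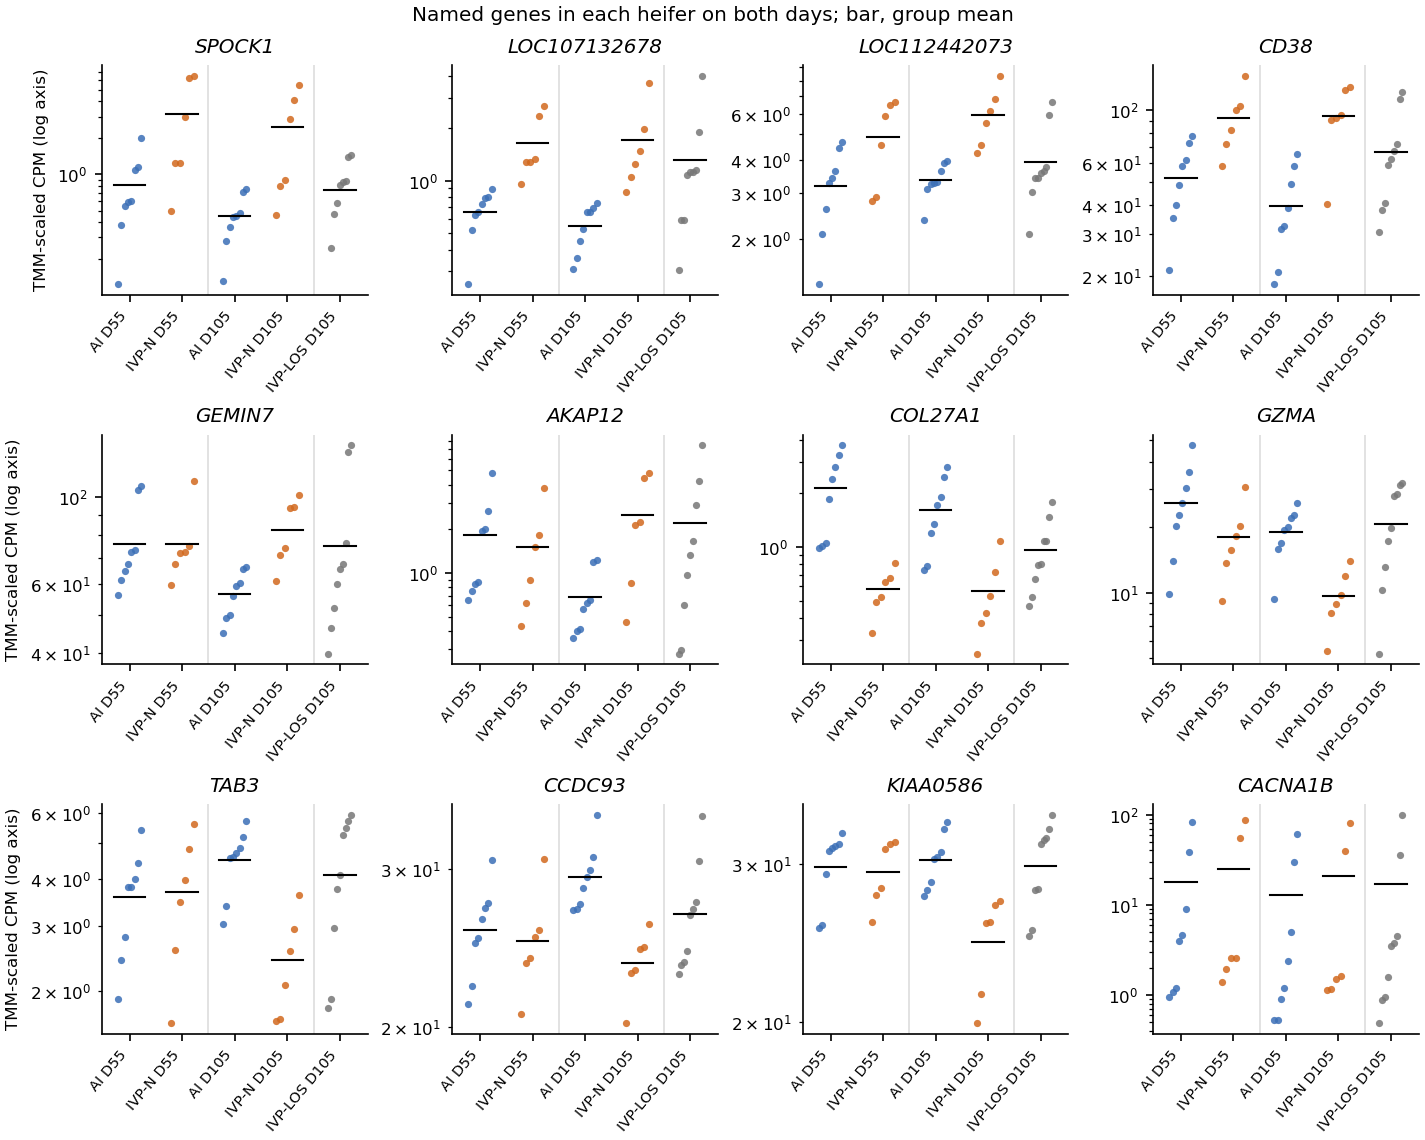
Level of 12 named genes (CPM, log axis) in each library, with D55 and D105 of AI in blue, of IVP-Normal in orange, and D105 of IVP-LOS in grey; bars are group means, and a value of 0 cannot be drawn. Group means of *COL27A1*, *CD38* and *SPOCK1* differed in the same direction on both days, with groups that overlapped except those of *COL27A1* on D55. For *GEMIN7*, *TAB3* and *KIAA0586* the means were close on D55, and on D105 the groups of *KIAA0586* did not overlap while those of the other two did.

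Whether the difference between groups itself changed from D55 to D105 was asked with an interaction term over the 28 libraries. Only the AI heifers changed library set between the days, from New on D55 to BACKUP on D105. The term therefore coincides with library set, and a change of the group difference cannot be told apart from an effect of the set. edgeR's quasi-likelihood test called 0 of 16096 genes, with 546 at an unadjusted p under 0.05 (3.39%) and a smallest FDR of 0.9999. With each heifer as a replicate block it again called 0, with 1003 at an unadjusted p under 0.05. For *GEMIN7*, *AKAP12*, *TAB3* and *KIAA0586* the FDR of this term was 0.9999 in the fit without the block. In the fit with the block the smallest FDR of any gene was 0.685. A change between days was thus not shown for any of these genes in either fit. edgeR's likelihood ratio test and DESeq2 also called 0 genes.

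Markers of B cells, the antibody lineage, were mostly higher in IVP-Normal. Of 17 B cell genes tested on D105, 15 had a positive log2 fold change, 8 were higher at an unadjusted p under 0.05 and 0 lower, against 5.31% of all genes higher. The median log2 fold change of the list was 0.45, beside 0.0077 for all genes tested, and 0 members were called at the FDR threshold. *MS4A1* (CD20) was at 490 to 1358 CPM (median 861) in AI and 1031 to 1844 CPM (median 1160) in IVP-Normal. *CR2*, the complement receptor of B cells, had a log2 fold change of 0.51, and *VPREB3*, expressed in developing B cells, of 0.94. The summed level of the 17 markers was 2506 to 6049 CPM in AI and 4497 to 7918 CPM in IVP-Normal. On D55, within 1 library set, 15 of 17 were again positive with a median of 0.42. Without heifer 519, the IVP-Normal library farthest from the others, 15 of 17 were positive on D105 with a median of 0.31, but 1 had an unadjusted p under 0.05, where all genes gave 3.27% higher and 2.61% lower. Without heifer 633 this was 5 of 17, against 3.07% of all genes higher and 2.56% lower in that fit. For IVP-LOS against AI on D105, where both groups are in the set BACKUP, 15 of 17 were positive (median 0.31, beside 0.03 for all genes). The summed level in IVP-LOS was highest in heifers 664 (8484 CPM) and 604 (6810 CPM). All other IVP-LOS heifers, at 3291 to 5704 CPM, lay within the AI range.

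MHC class II genes, which present antigen to CD4 T cells and are abundant in B cells, were positive in 11 of 14 (median 0.26), with 3 higher at an unadjusted p under 0.05 (all genes 5.31%). *BOLA-DYB*, *BOLA-DOB* and the transactivator *CIITA* had log2 fold changes of 0.90, 0.81 and 0.45, and the invariant chain *CD74* of 0.17. On D55 the median was 0.24. For IVP-LOS against AI on D105 7 of 13 were positive (median 0.0034). *BOLA-DQB*, named after its values were seen, was at 283 to 404 CPM in 5 of the 14 D105 libraries (AI heifer 546 and IVP-Normal heifers 519, 560, 628 and 688) and at 0.846 CPM or less in the other 9. MHC class II genes of cattle differ between haplotypes in number and sequence, and reads of one copy can be assigned to another. Plasma cell genes were positive in 3 of 8 (median −0.03, or 0.02, 0.06 and 0.01 without heifers 519, 546 and 633 in turn), with *IRF4* at 0.24, *DERL3* at 0.33, *XBP1* at −0.20 and *JCHAIN* at −0.15 (log2 fold changes).

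The immunoglobulin V segment *LOC112442065* had the largest log2 fold change of the genes called by any test on D105 (4.03, FDR 0.0255 in edgeR's likelihood ratio test and 0.0508 in DESeq2). It was named after its values were seen. It was at 18.2 and 28.9 CPM in the IVP-Normal heifers 669 and 633, at 0.31 to 1.63 CPM in the other 4 and at 0.176 to 0.766 CPM in AI. On D55 the same 2 heifers were at 19.5 and 18.7 CPM. Of the IVP-LOS libraries, 3 were at 4.71 to 10.4 CPM and the other 6 at 0.511 CPM or less.

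**Figure D3:**
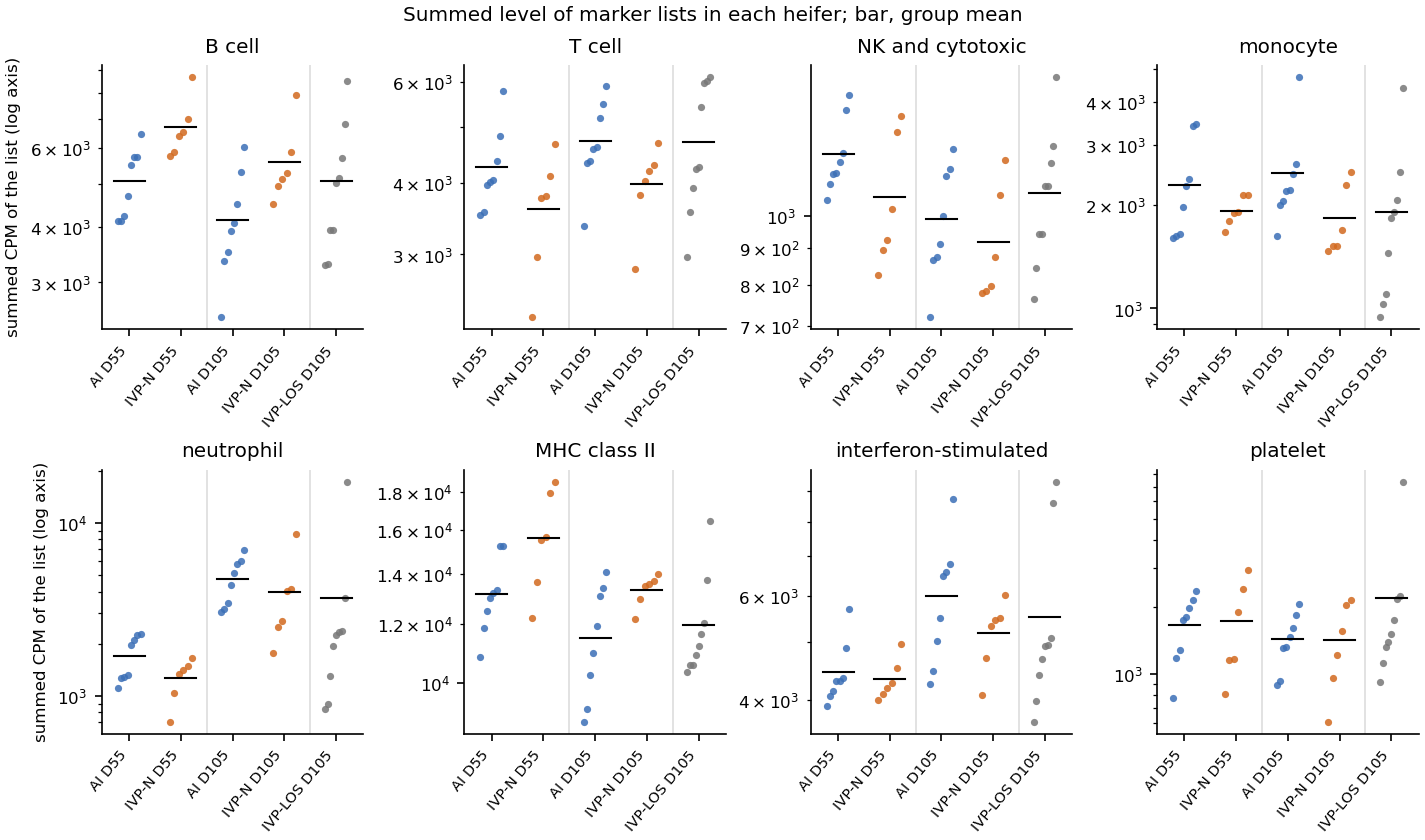
Summed CPM of 8 marker lists (log axis) in each library, with AI in blue, IVP-Normal in orange and IVP-LOS in grey; bars are group means. The B cell sum was higher and the monocyte sum lower in IVP-Normal in mean on both days, with overlapping groups, and neutrophil sums were higher on D105 than on D55 in mean in both groups.

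Markers of T cells were mostly lower in IVP-Normal. Of 24 T cell genes 22 were negative on D105, 10 were lower at an unadjusted p under 0.05 (all genes 4.26%) and 0 higher (5.31%), with a median of −0.29. *CD4*, the co-receptor of helper T cells, was at 152 to 271 CPM (median 244) in AI and 131 to 229 CPM (median 173) in IVP-Normal. *CD8A*, of cytotoxic T cells, was on average at 84.8 ± 17.6 CPM (SD) over the 8 AI heifers and at 60.4 ± 11.45 CPM over the 6 IVP-Normal heifers, with lowest values of 65.5 and 40.7 CPM. The kinase *ZAP70*, abundant in T cells, had a log2 fold change of −0.18. On D55 22 of 24 were negative (median −0.30). The summed level was 3362 to 5908 CPM in AI and 2829 to 4692 CPM in IVP-Normal. Heifer 519 had the lowest sum, and the other IVP-Normal heifers, at 3805 to 4692 CPM, lay within the AI range. For IVP-LOS against AI within the set BACKUP, 13 of 24 were negative (median −0.0040).

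NK and cytotoxic genes were negative in 18 of 22 (median −0.24), with 2 lower at an unadjusted p under 0.05 (all genes 4.26%). These were *GZMA* and the activating receptor *KLRK1* (log2 fold change −0.40). *NKG7*, a granule protein of cytotoxic cells, was at −0.34 and the transcription factor *TBX21* (T-bet) at 0.21. Without AI heifer 546 15 of 22 were negative (median −0.12) with 1 lower at an unadjusted p under 0.05 (all genes 2.89%). Without heifer 519 14 of 22 were negative (median −0.17), with 1 lower (all genes 2.61%). For IVP-LOS against AI 17 of 22 were positive (median 0.10). Genes of γδ T cells were negative in 7 of 9 (median −0.09, or 0.01 without heifer 519 and −0.17 without heifer 546), with wide spread of WC1 genes between heifers (*WC1* −0.87, *WC1-8* −1.14, *WC1.3* 0.38, *BLK* 0.12). WC1 genes form a family whose reads can be split between copies. Genes of regulatory T cells and immune checkpoints were negative in 19 of 25 (median −0.22), and in 17 of 25 without heifer 519 (median −0.11). The co-stimulator *ICOS* was at −0.37, the interleukin receptor chain *IL2RB* at −0.28, the checkpoint receptor *TIGIT* at −0.33 and *IDO1*, which degrades tryptophan, at −0.41.

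All 15 monocyte genes tested were lower in IVP-Normal in their fitted value (median log2 fold change −0.68), and 4 had an unadjusted p under 0.05, against 4.26% of all genes. *CCR2*, the receptor that draws monocytes to inflamed tissue, was at 52.7 to 131 CPM (median 66.9) in AI and 29.7 to 59.8 CPM (median 44.0) in IVP-Normal. *VCAN*, a proteoglycan of classical monocytes, was at 83.1 to 439 CPM (median 176) against 59.2 to 184 CPM (median 86.5). *CD163*, the haemoglobin scavenger receptor, was at 36.3 to 288 CPM (median 65.5) against 17.7 to 96.4 CPM (median 36.6). *CD14*, the lipopolysaccharide co-receptor, had a log2 fold change of −0.77, and *MPEG1* of −0.16. On D55 14 of 15 were negative (median −0.40). AI heifer 546 was the highest library for *CCR2*, *CD14* and *MPEG1* in its group. Without it 14 of 15 were negative and the median was −0.23, with 2 lower at an unadjusted p under 0.05 (all genes 3.6% higher and 2.89% lower). Without heifer 519 the count at an unadjusted p under 0.05 was also 2 (all genes 3.27% higher and 2.61% lower). For IVP-LOS against AI within the set BACKUP 14 of 15 were negative (median −0.46).

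Neutrophil genes were negative in 9 of 13 (median −0.31) with 0 at an unadjusted p under 0.05 (*S100A8* −0.62, *S100A9* −0.60, *S100A12* −0.35). Without heifer 519 the median was −0.14 with 8 of 13 negative. Their summed level ranged from 3046 to 6916 CPM in AI and from 1773 to 8582 CPM in IVP-Normal on D105. On D55 the sums were lower in both groups, at 1099 to 2263 CPM and 708 to 1659 CPM. Granule protein genes were negative in 6 of 9 (median −0.25, or −0.12 without heifer 519). Lipocalin *LCN2* was on average at 23.3 ± 9.65 CPM (SD) over the 8 AI heifers and at 39.1 ± 21.4 CPM over the 6 IVP-Normal heifers, while *CHI3L1* was at a log2 fold change of −0.48 and lactoferrin (*LTF*) of −0.43. Genes of eosinophils and basophils were negative in 7 of 10 (median −0.21, or −0.02 and −0.06 without heifers 519 and 633), with the IgE receptor chain *FCER1A* at −0.59, *CPA3* at −0.62, *GATA2* at −0.46 and *ADGRE3* at −0.17. Leaving out the 2 heifers with 2 fetuses moved the neutrophil median to −0.88 with 13 of 13 negative and 8 lower at an unadjusted p under 0.05. In that fit 8.63% of all genes were higher and 8.44% lower at an unadjusted p under 0.05, and 0 were called.

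Platelet genes were positive in 12 of 15 (median 0.42), with 3 higher at an unadjusted p under 0.05 (all genes 5.31%). The summed level of the list had nearly the same median in both groups. It was 894 to 2069.5 CPM (median 1393.6) in AI and 609 to 2151 CPM (median 1386.5) in IVP-Normal. *GP9*, a subunit of the platelet receptor for von Willebrand factor, was at 2.50 to 7.07 CPM (median 3.502) in AI and 3.14 to 18.4 CPM (median 10.2) in IVP-Normal. *GP5* and P-selectin (*SELP*) had log2 fold changes of 0.94 and 0.90. *F13A1*, which monocytes also express, was at −0.71. At 397 to 1060 CPM in AI and 97.7 to 645 CPM in IVP-Normal, it weighs heavily in the summed level. On D55 12 of 15 were positive (median 0.27, or 0.34 without the D55 library of heifer 517), and without the 2 heifers with 2 fetuses 8 of 15 were positive on D105 (median 0.16). Without heifer 519 9 of the 15 were higher at an unadjusted p under 0.05 and 0 lower, where all genes gave 3.27% and 2.61%. Without heifer 546 or 633 there were 2, where all genes gave 3.6% and 3.07% higher. Erythroid genes were positive in 7 of 8 (median 0.24), with *KLF1* at 0.71, *EPB42* at 1.17, *AHSP* at 0.27 and the haemoglobin chain *HBB* at 0.14. None of the erythroid genes had an unadjusted p under 0.05. Without the 2 heifers with 2 fetuses 4 of 8 were positive (median −0.06).

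Interferon-stimulated genes were mostly lower in IVP-Normal on D105. Of 49 genes 39 were negative and 6 were lower at an unadjusted p under 0.05 (all genes 4.26%), with 0 higher (median −0.21). Without heifer 519 the median was −0.11 with 4 lower, without heifer 546 it was −0.18 with 3, and without heifer 633 it was −0.16 with 4. All genes gave 2.61%, 2.89% and 2.56% lower in these fits, in turn. For IVP-LOS against AI 31 of 49 were negative (median −0.07). *OAS1X*, a sensor of double-stranded RNA, was at 16.3 to 116.9 CPM (median 71.0) in AI and 5.29 to 53.8 CPM (median 27.5) in IVP-Normal. *OAS1Z*, a close copy, was at 14.2 to 63.5 CPM (median 46.3) against 10.6 to 31.7 CPM (median 18.3). *STAT2*, which carries the type I interferon signal to the nucleus, was at 74.2 to 307 CPM (median 123.5) against 42.2 to 114.8 CPM (median 79.1). Its log2 fold change was −0.87 on D105 and 0.33 on D55. On D55 35 of 49 were negative (median −0.09), with 3 higher and 5 lower at an unadjusted p under 0.05, or 3 and 3 without the D55 library of heifer 517. All genes gave 4.98% higher and 4.93% lower on D55, or 7.49% and 5.21% without that library. Reads of the OAS1 genes can be split between near-identical copies.

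MHC class I and antigen processing genes were balanced, with 9 of 19 positive (median −0.0052, and between −0.03 and 0.0059 without heifer 519, 546 or 633) and *CANX*, *PSMB9*, *PSMB10* and *B2M* at −0.19, 0.19, 0.16 and −0.17. Genes of pattern recognition were positive in 15 of 40 (median −0.06, or −0.01 and −0.03 without heifers 519 and 546). The NF-κB regulators *NFKBID* and *NFKB2* had log2 fold changes of 0.63 and 0.31, and *MYD88* of −0.07. Inflammatory cytokine genes were negative in 22 of 29 (median −0.17), and in 18 of 30 without heifer 519 (median −0.06). *TNFSF10* (TRAIL), an inducer of cell death, was at 99.5 to 160 CPM in AI and 40.0 to 128.8 CPM in IVP-Normal. The neutrophil attractant *CXCL8* was at 24.9 to 103.8 CPM (median 74.9) in AI and 41.8 to 509 CPM (median 82.8) in IVP-Normal, and its log2 fold change was 1.32, or 0.55 without the 2 heifers with 2 fetuses. *TNFSF13B* (BAFF), a survival factor of B cells, was at −0.72 and *LTB* at 0.07.

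Chemokine receptor and adhesion genes were negative in 32 of 39 (median −0.23), with 7 lower (all genes 4.26%) and 1 higher (5.31%) at an unadjusted p under 0.05. The median was −0.14 with 5 lower (all genes 2.61%) when heifer 519 was left out. *CXCR3*, a receptor of activated T cells, was at 10.4 to 17.8 CPM (median 12.8) in AI and 4.28 to 11.7 CPM (median 9.48) in IVP-Normal. The integrin chain *ITGAL* (of LFA-1) was at 451 to 828 CPM (median 611) against 343 to 567 CPM (median 466.4), and *ITGB2* had a log2 fold change of −0.07. Cell cycle genes were negative in 32 of 40 (median −0.14, or −0.08 without heifer 546), with *MKI67*, *CENPF* and *CENPE* at −0.57, −0.44 and −0.41 and *MCM7* at 0.13. Genes of eicosanoid synthesis and signalling were positive in 11 of 24 (median −0.09, or −0.02 and −0.03 without heifers 519 and 633). The prostaglandin receptor *PTGER2* was at −0.70, *HPGDS* at −0.71, *PTGES3* at 0.33 and the thromboxane receptor *TBXA2R* at 0.22. *PTGES3* was at 344 CPM in heifer 633 and at 159 to 226 CPM in the other IVP-Normal heifers. With 1 heifer left out at a time its log2 fold change ranged from 0.13 to 0.40.

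**Figure D4:**
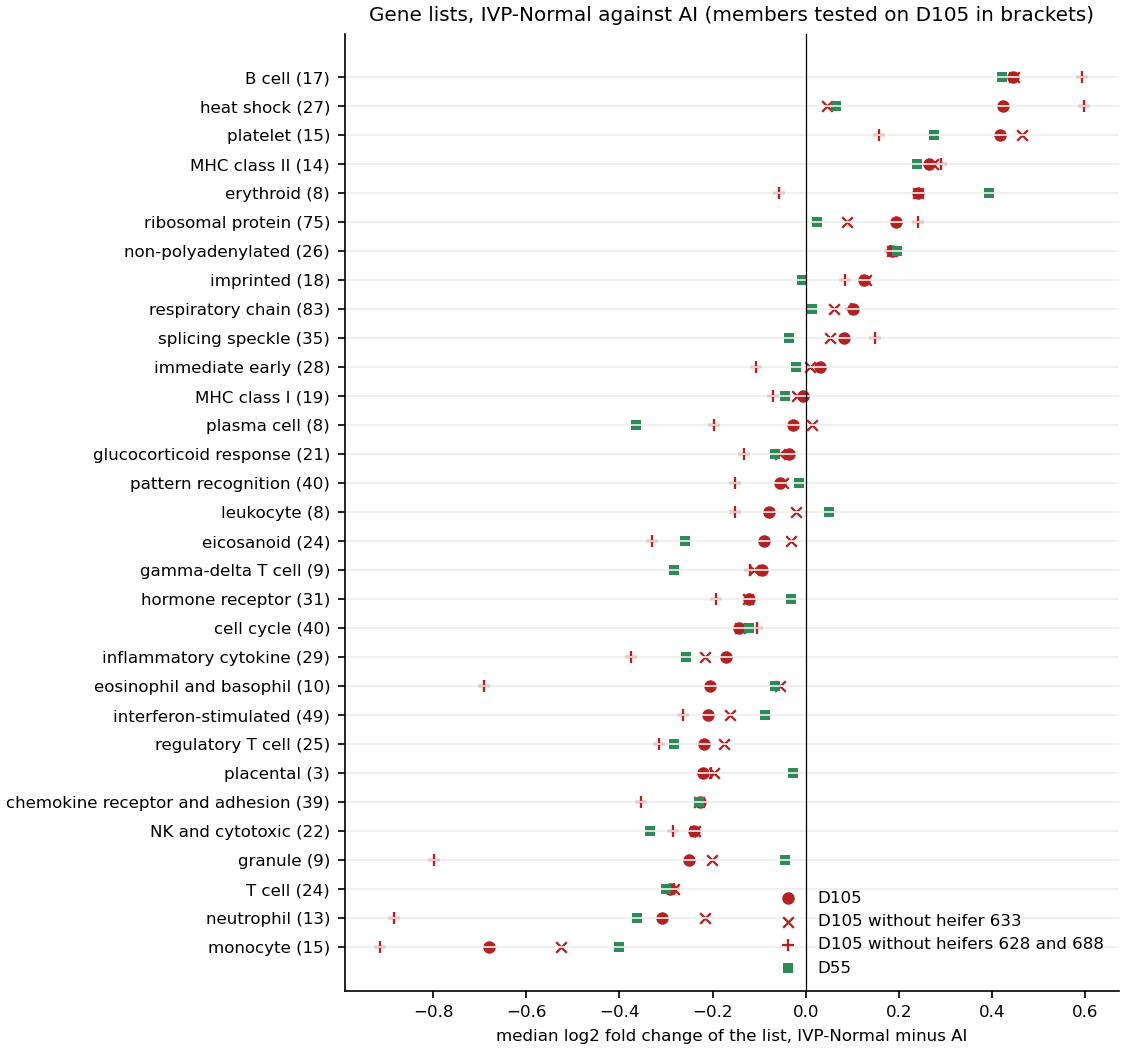
Median log2 fold change (IVP-Normal minus AI, horizontal axis) of each gene list on D105 (red circles), on D105 without heifer 633 (crosses) or without the 2 heifers with 2 fetuses (plus signs), and on D55 (green squares). B cell genes lie highest and monocyte genes lowest on D105, and the heat shock median moves from 0.42 to 0.05 without heifer 633.

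Heat shock and chaperone genes were positive in 22 of 27 on D105 (median 0.42), with 9 higher (all genes 5.31%) and 1 lower (4.26%) at an unadjusted p under 0.05. The library of IVP-Normal heifer 633 stood apart from the others. *HSPA1A*, the main inducible HSP70, was at 1375 CPM in heifer 633 and at 67.7 to 102.4 CPM in the other 13 heifers. *HSPA6* was at 33.9 CPM against 0.221 to 1.36 CPM, and *FKBP4*, an HSP90 co-chaperone, at 299 CPM in that heifer. Of the 27 genes 19 were highest in heifer 633 on D105 and 0 were highest in it on D55. Without heifer 633 the log2 fold change of *HSPA1A* went from 1.82 to −0.02, that of *HSPA6* from 3.17 to 0.22 and that of *HSPA8* from 0.48 to 0.15. The median of the list then was 0.05, with 1 higher and 1 lower at an unadjusted p under 0.05 (all genes 3.07% and 2.56%). On D55 the median was 0.06.

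**Figure D5:**
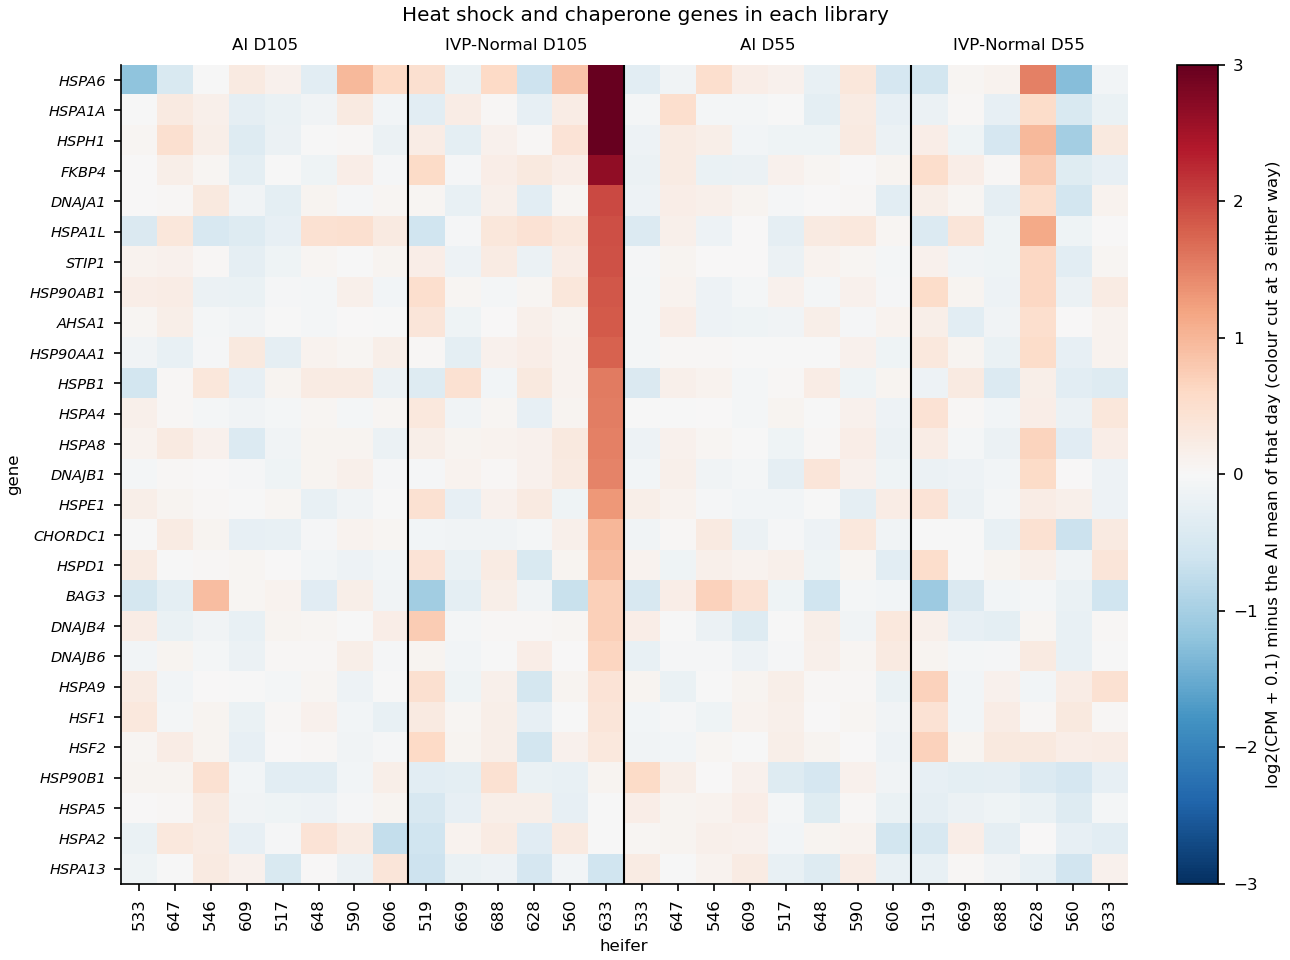
Heat shock and chaperone genes (rows) in each AI and IVP-Normal library of both days (columns, heifer numbers), as log2 of CPM plus 0.1 minus the AI mean of that day. The D105 column of heifer 633 is red for most genes, and its D55 column is not.

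Glucocorticoid response genes were positive in 8 of 21 (median −0.04, or 0.08 and 0.01 without heifers 519 and 546), with *SESN1*, *ANXA1* and *TXNIP* at 0.46, −0.56 and 0.18, besides *CD163*. Immediate early genes were positive in 15 of 28 (median 0.03, or 0.12 without heifer 519). *MYC*, *IER2* and *KLF2* had log2 fold changes of 0.63, 0.38 and 0.26 and unadjusted p-values under 0.05, where all genes gave 5.31% higher. Without heifer 633, 0 immediate early genes had an unadjusted p under 0.05 (all genes 3.07% higher and 2.56% lower).

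Genes of hormone and cytokine receptor signalling were negative in 23 of 31 (median −0.12). *IGF1R*, the receptor of insulin-like growth factor 1, was at 6.56 to 21.9 CPM (median 14.1) in AI and 3.01 to 12 CPM (median 7.28) in IVP-Normal. *IGF2R*, which binds IGF2 for degradation and is imprinted in cattle, was on average at 105.5 ± 13.35 CPM (SD) over the 8 AI heifers and at 88.8 ± 13.4 CPM over the 6 IVP-Normal heifers. The interferon receptor chain *IFNAR1* and the kinase *JAK1* were at log2 fold changes of −0.36 and −0.12. The progesterone receptor gene *PGR* had 0 reads in all 14 libraries. Imprinted genes were positive in 13 of 18 (median 0.12), with *PEG10*, *BLCAP* and *GNAS* at 0.76, 0.12 and 0.09, besides *IGF2R*. *PEG10* was at 9.51 CPM in IVP-Normal heifer 519 and at 1.63 to 3.57 CPM in the other IVP-Normal heifers. In AI it was at 1.48 to 2.42 CPM. With 1 heifer left out at a time its log2 fold change ranged from 0.18 to 0.91.

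Of 30 placental genes, 24 had 0 reads in all 14 D105 libraries, among them the pregnancy-associated glycoproteins *PAG2* and *PAG11*, and 3 passed the expression filter. These were *PEG10*, *SSLP1* (log2 fold change −0.28) and *PAG1*. *PAG1* was on average at 497 ± 38.7 CPM (SD) over the 8 AI heifers and at 426 ± 62.2 CPM over the 6 IVP-Normal heifers. In the RefSeq gene table *PAG1* lies on another chromosome than *PAG2* and *PAG11*. The same symbol names an adaptor of lymphocyte membranes, so these reads are not read as placental RNA.

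Genes of RNA and protein synthesis and of respiration had small fitted differences, with medians of 0.19 for 75 ribosomal protein genes (73 positive, 3 higher at an unadjusted p under 0.05), 0.10 for 83 genes of the respiratory chain (75 positive, 0) and 0.08 for 35 genes of splicing speckles (28 positive, 5). Over all genes tested, 5.31% were higher at an unadjusted p under 0.05. Examples of the ribosomal protein genes are *RPS20*, *RPS15*, *RPL35* and *RPS2* at 0.27, 0.27, 0.23 and 0.19. *SDHB*, *NDUFA6*, *ATP5MF* and *ATP5F1B* were at 0.22, 0.16, 0.22 and 0.11. *CLK2*, *SRSF3*, *SRSF6* and *SRRM2* were at 0.23, 0.17, 0.23 and −0.11. Without heifer 633 the 3 medians were 0.09, 0.06 and 0.05, and without heifer 519 they were 0.15, 0.06 and 0.07, with 0 of the splicing genes at an unadjusted p under 0.05 in either fit. On D55 they were 0.02, 0.01 and −0.04, or 0.04, 0.0030 and −0.04 without the D55 library of heifer 517. Histone and small RNA genes, a list picked by symbol as mostly not polyadenylated, were positive in 21 of 26. The median was 0.19, or 0.09 and 0.10 without heifers 519 and 546. *RMRP*, *HIST3H2A*, *HIST1H3C* and *HIST2H2BE* were at 0.87, 0.44, 0.58 and 0.02. Polyadenylation of single members was not checked. On D55 the median of that list was 0.20, or 0.25 without the D55 library of heifer 517. The part of library set in these values was not tested.

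*CACNA1B*, which encodes a neuronal calcium channel, varied more between heifers than between groups. On D105 it was at 60.8 and 29.9 CPM in AI heifers 648 and 590 and at 5.03 CPM or less in the other 6. In IVP-Normal it was at 80.1 and 39.1 CPM in heifers 688 and 628, the heifers with 2 fetuses, and at 1.13 to 1.61 CPM in the other 4. The same 4 heifers were highest on D55, at 83.5, 38.6, 87.3 and 55.2 CPM. The log2 fold change between groups was 0.72 (standard error 1.23).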

How the data were processed

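RNA of buffy-coat leukocytes was sequenced, and the D105 libraries of AI and IVP-Normal heifers were compared. The authors deposited unnormalized counts of reads for each gene, made by aligning reads with HISAT2 2.1.0 to ARS-UCD1.2 and counting with HTSeq; the submitters' processing notes also name FastQC, MultiQC, edgeR and DESeq2. The NCBI gene table (30675 genes) was used. Its summary lines stayed out of library sizes. RUVseq factors, named by the authors, were not used here.

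Counts were TMM-scaled and tested in R 4.3.3 with edgeR 4.0.16 (quasi-likelihood F-test, filterByExpr minimum count 10, FDR at most 0.05). Likelihood ratio tests of edgeR and of DESeq2 1.42.0 were alternatives, besides other scalings, filters, the Ensembl table, a covariate and leaving out heifers. The fits were checked on simulated counts. Distances used log2 of CPM plus 1. Exact permutation tests were two-sided, and the smallest p they could give for 8 against 6 heifers was 0.000333.

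Within a day each library is labelled as a different heifer, so p-values set the group difference against the spread between animals. On D105 that difference includes library set. AI and IVP-Normal heifers are different animals, so the D105 comparison has no pairs. The 2 days of a heifer are pairs, given by the heifer number in the labels. They were used as a replicate block in an alternative fit of the change between days. The fits without the block treated the 2 days as independent.

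The members and gene lists were chosen with earlier results of these data known. Named were the 12 genes of smallest p in each direction with a symbol other than LOC, genes called by both likelihood ratio tests, genes whose groups did not overlap (at most 5 in each direction by mean level), the 3 members of smallest p and the most abundant member of each list, and *CACNA1B*. *LOC112442065*, *LOC112442378*, *SDK2* and *BOLA-DQB* were named after their values were seen. Some genes that the rule names are not reported here. None of the mitochondrially encoded genes listed was in the table. Gene types and neighbours came from the RefSeq table of ARS-UCD2.0, another build than that of the counts, so no coordinates or sequences are given.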

Additional observations from a re-analysis of the deposited data

Results flagged for a closer look

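Of 302 groups of D105 values examined, 27 held a heifer whose gap to the nearest other, as a share of the group's range, passed Dixon's 95% critical value. The values below are these shares. For independent, normally distributed values chance flags about 1 group in 20. That rate need not hold for CPM of genes measured in the same heifers, so the count is not compared with it.

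Heifer 633 (IVP-Normal) was highest for *HSPA1A* (0.9763), *HSPA6* (0.9743), *HSPA8* (0.908), *FKBP4* (0.9027) and *PTGES3* (0.6368), with *HSPA8* at 3597 CPM against 1331 to 1540 CPM in the other IVP-Normal heifers.

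Heifer 546 (AI) was highest for *BOLA-DQB* (0.9991), *CCR2* (0.7542), *TNFSF13B* (0.687), *CD14* (0.5967), *F13A1* (0.5889), *MPEG1* (0.5844) and *ANXA1* (0.5503). Its *CD14* level was 245.6 CPM, and the other AI heifers were at 63.4 to 136.9 CPM.

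Heifer 519 (IVP-Normal) was highest for *PEG10* (0.7535), *KLF1* (0.6865), *CEP162* (0.6484) and *CR2* (0.6421). Heifer 628 (IVP-Normal) was highest for *EPB42* (0.7281), *S100A8* (0.7115) and *CD163* (0.6267).

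Heifer 533 (AI) was lowest for *CD4* (0.5837) and highest for *DERL3* (0.5804) and *BOLA-DYB* (0.5514). Heifer 609 (AI) was highest for *SPRED3* (0.6074) and *STAT2* (0.5662). The other flags were *SLC20A2* in heifer 560 (IVP-Normal, 0.6666), *RMRP* in heifer 517 (AI, 0.5543) and *S100A9* in heifer 590 (AI, 0.5328).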

How the results depend on the processing

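The quasi-likelihood test called 0 genes on D105 under every other scaling, filter, table, covariate and choice of heifers tried, and 0 in each fit with 1 heifer left out. In those fits 878 (without heifer 633) to 2102 (without heifer 688) genes had an unadjusted p under 0.05, against 1477 in all 14. The likelihood ratio tests gave other counts. On D105 edgeR's called 3 genes, DESeq2's 3, both 2, and edgeR's with upper-quartile scaling and no filter 5, which added *CD38* and, with 0 to 2 reads per IVP-Normal library, *SDK2*. On D55 these tests called 3, 15 and, in common, 3, and without heifer 517 60 and 107. They called 11 and 43 genes between AI and IVP-LOS, and 4 and 13 between IVP-Normal and IVP-LOS, where the quasi-likelihood test called 0 (880 and 501 at an unadjusted p under 0.05). The cause was not tested. For the change between days, the replicate block of heifer left the count of calls at 0.

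Without the 2 heifers with 2 fetuses the share of reads on no gene differed by 0.0582 percentage points in the opposite direction. The separation of the D55 libraries was 2.07 (p = 0.0886, exact permutation test), and 2.77 (p = 0.0245) without heifer 517, an alternative chosen after seeing the data, as were all D55 values without that heifer and all list values without single heifers. The list medians moved beyond their spread for 2 lists without the heifers with 2 fetuses, to −0.80 for granule genes and −0.69 for eosinophil and basophil genes.

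Of the named genes, 9 changed sign in some fit, and in those fits none was called. Without the 2 heifers with 2 fetuses the log2 fold changes were −0.33 for *HBB*, −0.15 for *TXNIP*, −0.014 for *GNAS*, −0.059 for *HIST2H2BE* and −3.22 for *CACNA1B*. With the share of reads on no gene as a covariate *HIST2H2BE* was at −0.0087. With 1 heifer left out at a time, the ranges were −0.50 to 0.030 for *ADGRE3*, −0.093 to 0.35 for *HBB*, −0.0032 to 0.15 for *LTB*, −0.25 to 0.024 for *MYD88*, −0.11 to 0.30 for *TXNIP*, −0.016 to 2.03 for *HSPA1A*, −0.058 to 0.075 for *HIST2H2BE* and −0.51 to 1.84 for *CACNA1B*.

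Library set and group coincide on D105 and cannot be told apart, and recipient procedure and embryo source differ with the group as well. Genes under 1 CPM rest on few reads.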

Other observations

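The heifers whose D105 libraries lay farthest from the others, by mean Euclidean distance, were 519 (78.5), 633 (72.5) and 628 (70.0) of IVP-Normal and 546 (69.7) of AI, and the other 10 lay between 59.3 and 62.4. Between IVP-LOS and AI on D105, both in the set BACKUP, 12 of 15 platelet genes had a positive log2 fold change (IVP-LOS minus AI, median 1.12), beside a median of 0.03 over all genes tested. The summed platelet level was 7382 CPM in IVP-LOS heifer 604 and 920 to 2238 CPM in the other 8 (group median 1515 CPM, and 1394 CPM in AI). In that comparison 0 genes were called by the quasi-likelihood test (880 at an unadjusted p under 0.05, and 11 and 43 called by the likelihood ratio tests of edgeR and DESeq2).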
